A study of Mus musculus with 4 samples.

Results

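The RUNX and GFI1 families include Runx1, Gfi1 and Gfi1b, transcription factor genes of the switch from endothelium to blood, and the H3K27me3 peaks of these families were read in mouse erythro-myeloid progenitors (EMPs), the definitive blood progenitors of the yolk sac. The 6 genes were Runx1, Runx2, Runx3, Cbfb, Gfi1 and Gfi1b, out of 21938 protein-coding genes. Their peaks were those overlapping the gene or lying within 20 kb of it on mm10, which gave 11 of 10223 peaks with 500 EMPs and 15 of 15282 peaks with 15000 EMPs. Membership was set by gene name, as families that hold factors of this switch together with their paralogs and partner, and no peak value entered the rule.

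The study mapped H3K27me3 by CUT&RUN, which sequences the DNA that an antibody-bound nuclease cuts free around the mark, to find genes that carry the mark of the Polycomb enzyme EZH2. Cells came from C57BL/6 yolk sacs at embryonic day 10.5 and were sorted as LIN- SCA1- KIT+ CD41+ CD16/32+. All 4 libraries, H3K27me3 and IgG from 500 EMPs and from 15000 EMPs, carried the genotype label Ezh2fl/fl; Tie2-Cre+/+ followed by the words wild type, and the study treats them as wild type. Tie2-Cre acts from the endothelial stage onwards. Every group had 1 library, so nothing below has a replicate check, no test between the cell numbers was possible, and each value is given for 500 and 15000 EMPs side by side.

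The libraries from 500 EMPs had 17 cycles of amplification and reads of 76 bp, those from 15000 EMPs had 16 cycles and reads of 59 bp, and the instruments differed. The authors called the 500-EMP peaks at p 0.01 and the 15000-EMP peaks at p 0.05, and depth and alignment rate were lower for 500 EMPs per the reporting summary of the study. These differences and cell number cannot be told apart. The peak lists used here held positions without scores or reads, so the reads behind a peak and its height cannot be read from them. Signal tracks were not used here. A peak in a pool of cells cannot tell a mark on every cell from a mark on some of them. Marker genes give only a weak check of the cell label, since most genes lack a peak. Within 3 kb of the gene start, 9.92% of all protein-coding genes had a peak with 500 EMPs and 17.0% with 15000 EMPs. By the same count, 0 of 4 genes of the sorting gate (Kit, Itga2b, Fcgr3, Fcgr2b) had one in either library, whereas 3 of 3 neural genes (Pax6, Sox1, Neurod1) had it in both. With 15000 EMPs, 1 of 4 endothelial genes (Kdr, 274 bp covered) and 1 of 2 T cell genes (Cd3e, 171 bp) had such a peak. With 500 EMPs neither had one. Cdh5, Pecam1, Tek and Cd8a had none in either library, nor did any of the erythroid or macrophage genes.

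RUNX proteins bind DNA through the Runt domain as a dimer with CBFB, a partner that binds no DNA itself. RUNX1 is needed for blood cells to arise from hemogenic endothelium, where it turns on Gfi1 and Gfi1b, whose zinc finger products recruit histone-modifying enzymes and repress endothelial genes. RUNX2 is the master factor of bone, and RUNX3 acts in T cells and sensory neurons. Each Runx gene has a distal promoter, P1, and a proximal promoter, P2, which make proteins with different starts. H3K27me3 accompanies repressed genes, and in mammals it gathers at stretches rich in CpG dinucleotides.

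The promoters of the Runx genes show why paralogs can be set side by side. The sequences below are read 5' to 3' on the gene's strand, from RefSeq on GRCm38, with 250 bases before and 50 bases after the RefSeq start. All 6 genes were found in that promoter table. In the P1 promoters, capitals mark the longest run that the 3 genes share. Runx1 P1 lies at chr16:92826025-92826324 on the minus strand, Runx2 P1 at chr17:44814578-44814877 on the minus strand and Runx3 P1 at chr4:135120395-135120694 on the plus strand.

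Runx1 P1: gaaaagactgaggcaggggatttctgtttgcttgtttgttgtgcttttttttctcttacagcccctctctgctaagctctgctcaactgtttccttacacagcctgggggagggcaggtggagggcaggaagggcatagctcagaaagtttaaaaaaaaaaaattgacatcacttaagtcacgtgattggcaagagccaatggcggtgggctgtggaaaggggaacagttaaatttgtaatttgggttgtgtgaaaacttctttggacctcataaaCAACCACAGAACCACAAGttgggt

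Runx2 P1: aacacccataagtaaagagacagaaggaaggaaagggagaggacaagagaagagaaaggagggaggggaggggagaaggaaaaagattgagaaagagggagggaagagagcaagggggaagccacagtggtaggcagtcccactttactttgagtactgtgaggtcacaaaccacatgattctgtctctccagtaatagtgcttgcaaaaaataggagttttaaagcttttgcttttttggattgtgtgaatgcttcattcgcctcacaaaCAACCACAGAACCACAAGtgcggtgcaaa

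Runx3 P1: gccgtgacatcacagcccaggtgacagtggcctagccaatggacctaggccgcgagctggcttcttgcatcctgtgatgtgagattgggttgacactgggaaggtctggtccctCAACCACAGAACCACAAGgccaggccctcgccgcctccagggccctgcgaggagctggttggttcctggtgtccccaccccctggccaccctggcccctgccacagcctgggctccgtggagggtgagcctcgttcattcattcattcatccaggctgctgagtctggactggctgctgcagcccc

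The shared run, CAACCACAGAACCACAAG, is 18 bases long and holds 2 copies of AACCACA, a form of the site that RUNX proteins bind. Among 32851 RefSeq promoters of this length, 4 held the run on one strand or the other. They were those of Runx1, Runx2 and Runx3, which hold it by the way the run was chosen, and that of Gm16225. Gm16225 is a noncoding gene whose annotated start lies within the Runx3 P1 stretch on the other strand, so these promoters overlap. Counted from the RefSeq start, with negative values upstream, its first base lay at 26 in Runx1, at 21 in Runx2 and at -136 in Runx3. AACCACA, counted on both strands, occurred in 5.27% of all promoters, and 2 or more copies occurred in 0.204%. A match of letters is a description and not a bound site.

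The P2 promoters of Runx1 and Runx3 show the other kind of start, and capitals mark CpG. Runx1 P2 lies at chr16:92697280-92697579 on the minus strand and Runx3 P2 at chr4:135152295-135152594 on the plus strand. The promoter table holds no entry for Runx2 P2.

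Runx1 P2: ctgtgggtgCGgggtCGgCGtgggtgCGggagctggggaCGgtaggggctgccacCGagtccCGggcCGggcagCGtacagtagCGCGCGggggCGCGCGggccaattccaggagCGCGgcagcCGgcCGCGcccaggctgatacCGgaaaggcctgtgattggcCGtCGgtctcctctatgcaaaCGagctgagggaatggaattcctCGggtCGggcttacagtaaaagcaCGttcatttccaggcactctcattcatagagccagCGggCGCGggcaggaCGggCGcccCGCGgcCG

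Runx3 P2: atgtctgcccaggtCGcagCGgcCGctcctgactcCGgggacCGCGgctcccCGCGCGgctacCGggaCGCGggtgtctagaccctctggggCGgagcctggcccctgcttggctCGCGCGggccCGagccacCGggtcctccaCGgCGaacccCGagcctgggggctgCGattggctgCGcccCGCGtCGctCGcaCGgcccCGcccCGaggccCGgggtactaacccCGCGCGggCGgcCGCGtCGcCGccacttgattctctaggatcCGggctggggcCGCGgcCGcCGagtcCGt

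The 300 bases at Runx1 P2 held 35 CpG, and those at Runx3 P2 held 45. The observed over expected CpG ratio, which is 1 when CpG is as frequent as the C and G content gives, was 1.01 at Runx1 P2 and 1.01 at Runx3 P2. The 2 Gfi1 paralogs complete the set, again with CpG in capitals. The Gfi1 promoter lies at chr5:107725756-107726055 on the minus strand and the Gfi1b promoter at chr2:28621933-28622232 on the minus strand.

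Gfi1: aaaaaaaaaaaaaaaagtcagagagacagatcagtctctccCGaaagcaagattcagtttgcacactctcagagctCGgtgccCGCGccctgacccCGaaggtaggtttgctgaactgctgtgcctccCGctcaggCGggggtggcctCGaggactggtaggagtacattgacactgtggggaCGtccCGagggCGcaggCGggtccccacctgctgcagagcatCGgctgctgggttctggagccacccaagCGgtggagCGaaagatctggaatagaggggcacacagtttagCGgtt

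Gfi1b: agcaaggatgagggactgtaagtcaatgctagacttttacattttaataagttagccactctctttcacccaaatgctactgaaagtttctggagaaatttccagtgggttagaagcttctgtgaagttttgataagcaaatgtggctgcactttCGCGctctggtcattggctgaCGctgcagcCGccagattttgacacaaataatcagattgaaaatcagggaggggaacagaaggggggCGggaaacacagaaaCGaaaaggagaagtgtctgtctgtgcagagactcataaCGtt

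The Gfi1 promoter held 16 CpG and 1 copy of AATC, the core letters of the GFI1 site, counted on both strands. The Gfi1b promoter held 7 CpG and 4 copies of AATC. AATC is short, and 73.1% of all promoters held it while 10.1% held 4 or more copies.

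The data gave a simple order among the 6 genes. With 500 EMPs, 2 of 6 genes, Runx3 and Gfi1, had a peak in the gene or within 20 kb, against 18.6% of all protein-coding genes. With 15000 EMPs, 4 of 6 had one, the same genes plus Runx2 and Cbfb, against 30.1% of all. Runx1 and Gfi1b had none in either library. Peaks within 3 kb of the gene start were found at 1 gene, Gfi1, in both libraries, against 9.92% of genes with 500 EMPs and 17.0% with 15000 EMPs. With a limit of 1 kb no gene had one with 500 EMPs, against 7.39%. When the start of any annotated transcript was allowed, Runx3 joined with 500 EMPs (2 of 6, against 11.0%) and Runx2 as well with 15000 EMPs (3 of 6, against 18.5%). With 6 genes and 1 library a group, these shares describe the genes and were not tested against the background.

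**Figure D1:**
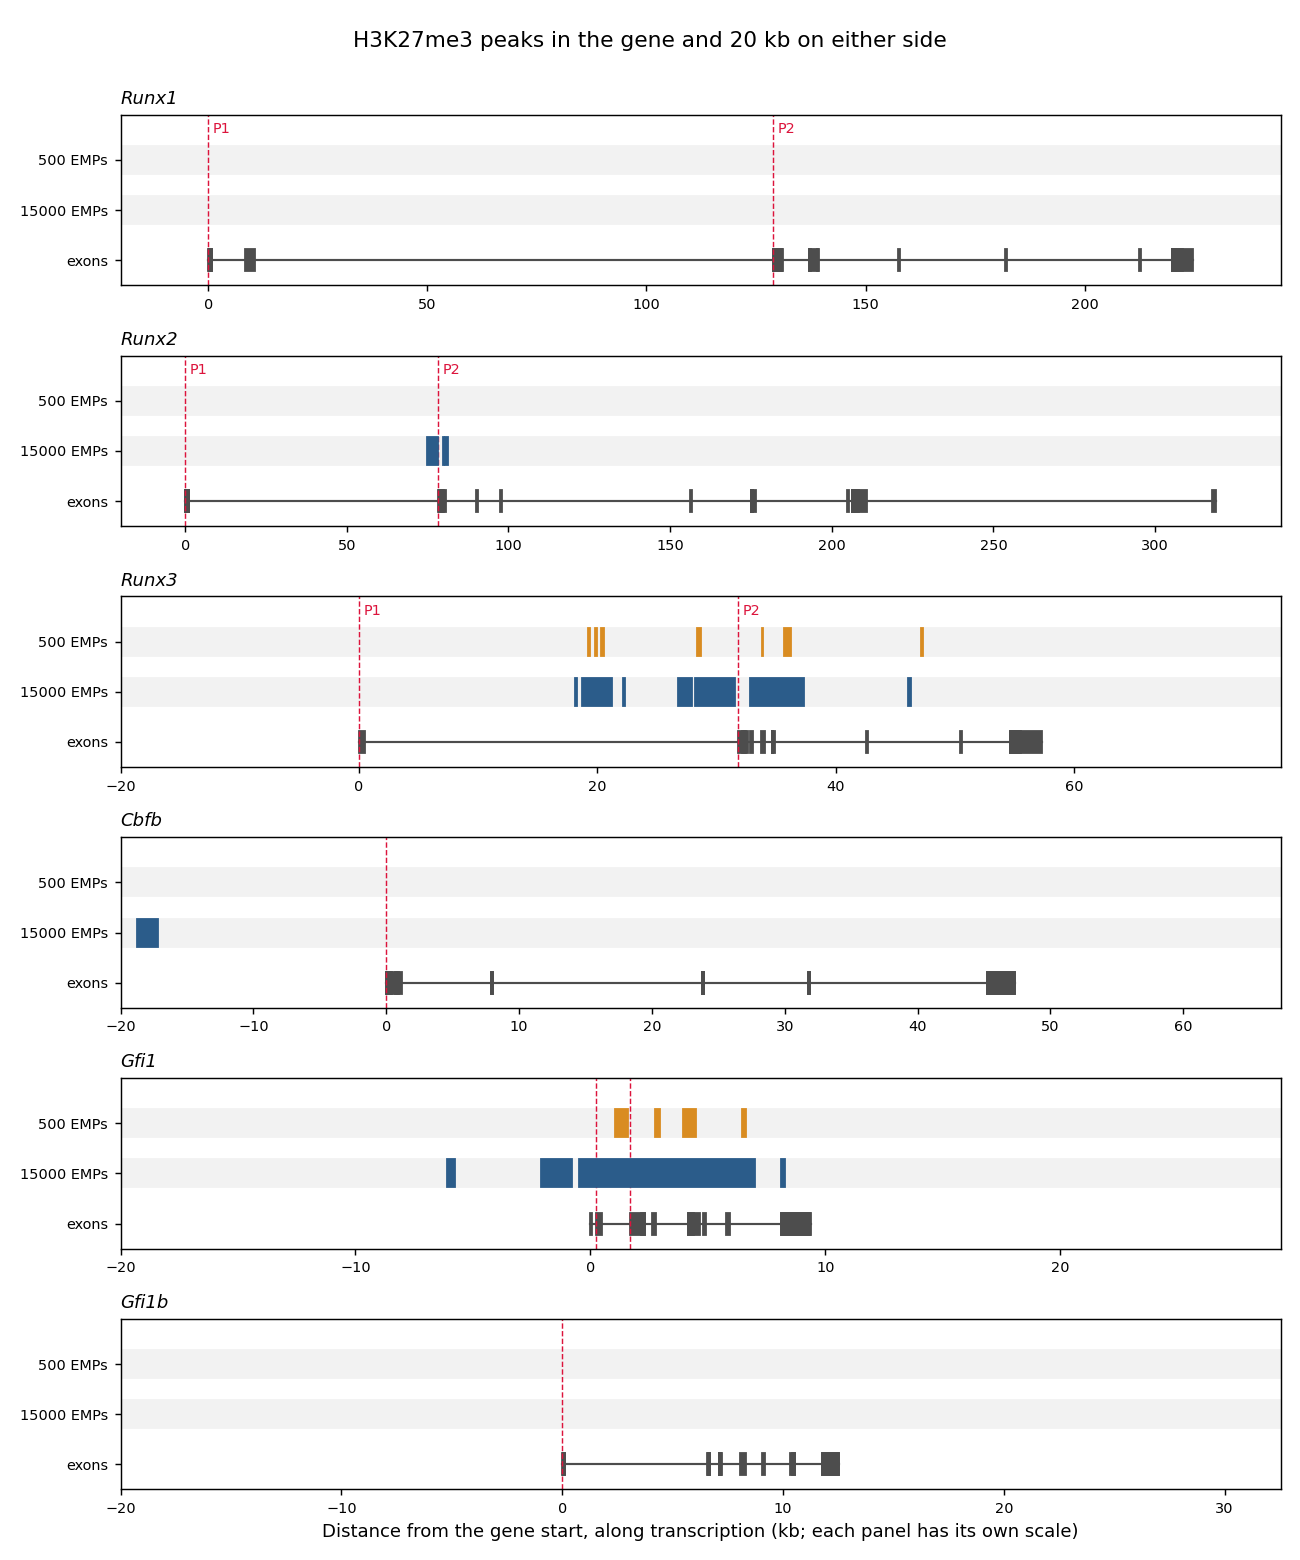
Map of each gene with 20 kb on either side, drawn from its start along transcription (x axis, kb, a separate scale in each panel). Orange and blue blocks are the H3K27me3 peaks of the 500-EMP and 15000-EMP libraries (1 library each), dark blocks are exons of all annotated transcripts and dashed lines are named starts. Very narrow peaks and exons are widened so that they can be seen. Runx1 and Gfi1b are empty, while the 15000-EMP peaks of Runx2 sit at P2 and those of Gfi1 span its start.

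Runx1 lies on the minus strand at chr16:92601466-92826149. Its gene and margins, 265 kb in all, held no peak in either library. The nearest peaks lay 101 kb to the left of the gene in both lists. To the right they lay 856 kb away with 500 EMPs and 574 kb away with 15000 EMPs. Runx1 thus sat in a stretch without peaks of 1182 kb with 500 EMPs and 899.6 kb with 15000 EMPs. The distance from P1 to the nearest peak was 326029 bp with 500 EMPs and 325201 bp with 15000 EMPs. From P2, which lies 129 kb further along the gene, it was 197208 bp and 196380 bp.

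A long gene without a peak was not rare in these lists. Of 848 protein-coding genes with a window at least as long as that of Runx1, 291, or 34.3%, had no peak in either library. Gm26626, a noncoding gene antisense to Runx1, had no peak either.

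Cbfb, the gene of the shared RUNX partner, lies on the plus strand at chr8:105170674-105217989. With 500 EMPs it had no peak, and the nearest to its start was 98652 bp away. With 15000 EMPs it had a peak of 1523 bp, chr8:105151935-105153457, which ended 17217 bp upstream of the start. This peak sat just inside the 20 kb margin, while the next beyond the gene's other end lay 49.5 kb away and outside it. No base within 3 kb of the Cbfb start was covered in either library. The authors' table also gives the upstream peak to Cbfb. D230025D16Rik, the protein-coding neighbour whose gene overlaps the margin, had no peak in its gene or within 3 kb of its start.

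Runx2 lies on the minus strand at chr17:44495987-44814797 and is the longest of the 6 genes at 319 kb. With 500 EMPs it had no peak, in a stretch without peaks of 1405 kb. Of 525 genes with a window at least as long, 53.7% had no peak with 500 EMPs and 28.2% had none with 15000 EMPs, so either outcome at Runx2 was the more common for its length. With 15000 EMPs it had 3 peaks, at chr17:44733657-44734498 (842 bp), chr17:44734806-44735134 (329 bp) and chr17:44736607-44739888 (3282 bp). All 3 lay around P2, at position 44736648, and together they covered 4453 bp, or 1.24% of the window. Within 3 kb of P2, 4213 of 6001 bp were covered. P1, which lies 78.1 kb upstream, had no covered base within 3 kb, and its nearest peak was 74909 bp away.

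The widest of these peaks ran over the intron upstream of P2 and ended 42 bp inside the first exon of the transcript that starts there. The next 1472 bp, chr17:44735135-44736606, were uncovered, and they held 4 of the 6 transcript starts at the proximal promoter. Their GC content was 69.2% and their CpG ratio 0.83. The peaks on either side had ratios of 0.45 (the widest) and 0.61. Runx2os1, a noncoding gene antisense to Runx2, starts in that gap at position 44735845, and 1006 bp of it were covered. The authors' table gives all 3 peaks to Supt3, a gene on the opposite strand that overlaps Runx2 and whose own start was 37264 bp from the nearest peak. A search of that table by the name Runx2 therefore returned none of them.

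Runx3 lies on the plus strand at chr4:135120652-135177990. It had the most peaks of the 6 genes, 7 in each library, all inside the gene. With 500 EMPs they were 137 to 562 bp wide and covered 1672 bp. With 15000 EMPs they were 171 to 4569 bp wide and covered 12284 bp. The covered share of the window was thus 1.72% and 12.6%, and 5.26% of all protein-coding genes had a higher share with 15000 EMPs.

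The 15000-EMP peaks of Runx3 fell into 3 places. In the intron that separates P1 from P2, peaks of 215, 2529 and 171 bp lay 18.1 to 22.3 kb from the gene start. Around P2, peaks of 1099, 3380 and 4569 bp reached from 135147471 to 135158001. A peak of 321 bp stood further into the gene at chr4:135166700-135167020. The 500-EMP peaks followed the same places, with 3 in the intron, 3 around P2 and 1 further in. Of these 7, 6 overlapped a 15000-EMP peak. The exception, chr4:135167813-135167949, had the smallest width in its list, 137 bp, and lay 793 bp from the nearest 15000-EMP peak.

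At P2 itself, position 135152496, the base was uncovered in both libraries. With 15000 EMPs it lay in a gap of 1191 bp, chr4:135152242-135153432, with 255 bp to the peak upstream and 937 bp to the peak downstream. The gap held 3 transcript starts of Runx3. Its GC content was 73.8% and its CpG ratio 0.88, while the peaks upstream and downstream had ratios of 0.44 and 0.39. Within 3 kb of P2, 137 bp were covered with 500 EMPs and 4810 bp with 15000 EMPs. P1 had no covered base within 3 kb, and its nearest peak lay 19261 bp away with 500 EMPs and 18114 bp away with 15000 EMPs. Gm16224, antisense within Runx3, had 770 bp covered within 3 kb of its start with 15000 EMPs.

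Runx2 and Runx3 therefore shared a layout with 15000 EMPs, in which peaks flanked a CpG-rich gap with several proximal transcript starts and left P1 clear. They differed in that the P2 start used here was uncovered at Runx3 and lay under the edge of a peak at Runx2. Among the 3728 genes with a 15000-EMP peak within 3 kb of the gene start, 19.6% had an uncovered start with peaks on both sides, as at Runx3 P2. Runx1 had neither the peaks at P2 nor any elsewhere.

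**Figure D2:**
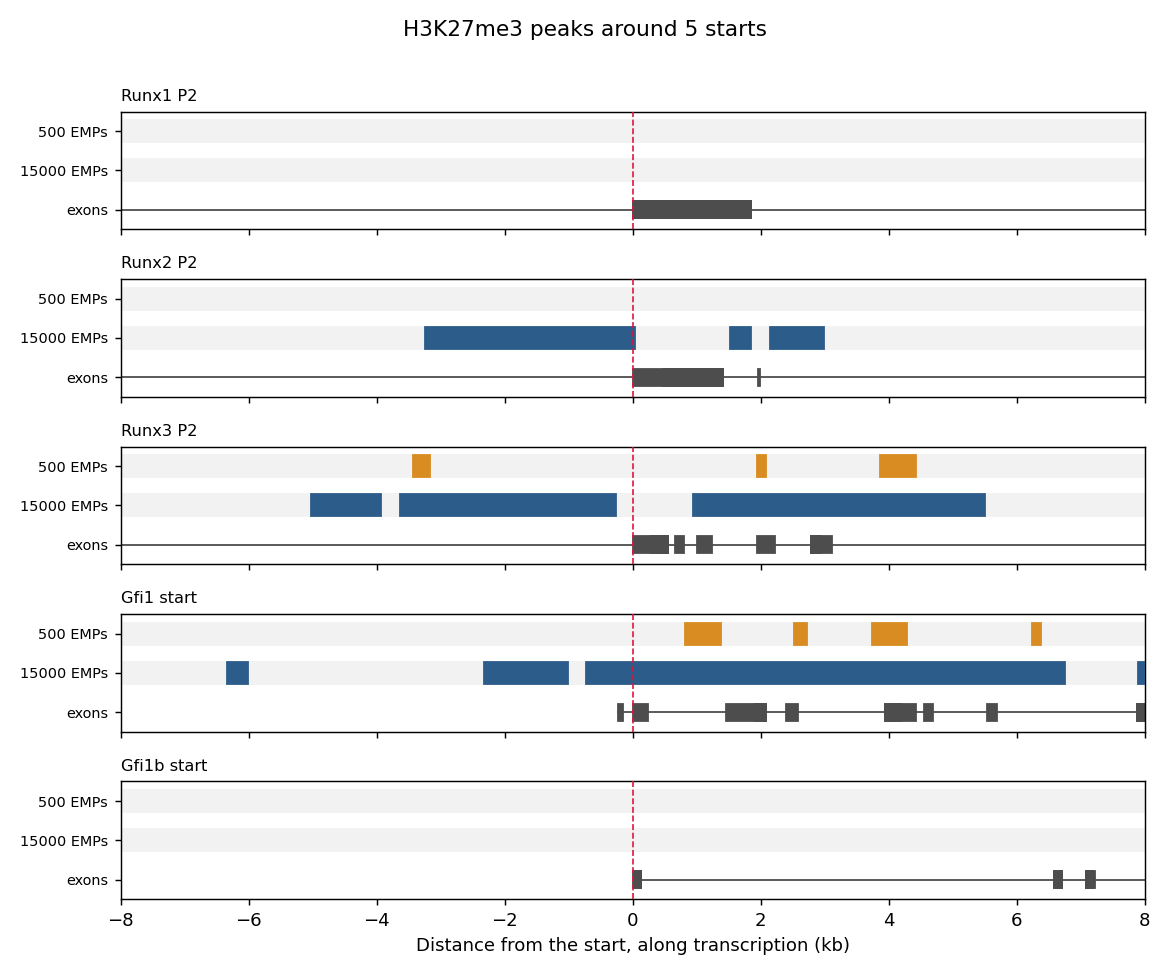
H3K27me3 peaks within 8 kb of 5 starts, drawn along transcription (x axis, kb from the start, dashed line), with 500-EMP peaks in orange, 15000-EMP peaks in blue and exons below (1 library each). The start of Runx3 P2 lies between peaks of 3380 and 4569 bp, the 3282 bp peak of Runx2 ends at P2, and a peak of 7489 bp runs across the Gfi1 start.

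Gfi1 lies on the minus strand at chr5:107716657-107726036 and was the gene with the largest covered share among the 6. With 500 EMPs it had 4 peaks inside the gene, of 137, 551, 208 and 562 bp from its 3' end to its 5' end. They covered 1458 bp, or 2.95% of the window. The 551 bp peak, chr5:107721523-107722073, lay over 341 bp of coding sequence, had the highest CpG ratio of the member peaks at 0.83, and was exceeded in this by 2.63% of the 500-EMP peaks.

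With 15000 EMPs a single peak of 7489 bp, chr5:107719043-107726531, ran across the start and most of the Gfi1 gene. It held all 4 of the 500-EMP peaks. In the whole list 2.34% of peaks were wider. A peak of 180 bp lay nearer the 3' end, and peaks of 1305 and 333 bp lay upstream. Together the 4 peaks covered 9307 bp, or 18.8% of the window, and 3.07% of protein-coding genes had a higher share.

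Around the annotated gene start of Gfi1, position 107726036, 770 bp within 3 kb were covered with 500 EMPs and 4801 bp with 15000 EMPs. Among genes with any covered base there, the median was 789 bp with 500 EMPs and 2743 bp with 15000 EMPs. At the main Gfi1 start, position 107725805, the covered length with 15000 EMPs was 5032 bp. At the inner start, position 107724343, it was 5713 bp of 6001. The start base was covered at both with 15000 EMPs and at neither with 500 EMPs, where the nearest peaks were 823 bp and 78 bp away. A base at the gene start was covered in 50.8% of the genes with a 15000-EMP peak within 3 kb.

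A430072P03Rik, a noncoding gene that starts inside Gfi1 and runs the other way, had 2680 bp covered with 15000 EMPs. Evi5, the protein-coding neighbour whose gene reaches into the margin, had none in its gene or within 3 kb of its start. By the overlap of covered bases within 10 kb of the start in both libraries (the Jaccard index, 1 for identical cover), the genes most like Gfi1 among 4467 were Hapln4 at 0.71, Bmp7 at 0.67 and Tfap2e at 0.66, against a median of 0.20.

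Gfi1b, the paralog of Gfi1, lies on the minus strand at chr2:28609450-28621982. It had no peak in either library. The nearest peak to its start was 128953 bp away with 500 EMPs and 127490 bp away with 15000 EMPs. The stretch without peaks around it was 556 kb long with 500 EMPs and 301 kb with 15000 EMPs. Tsc1, the protein-coding neighbour that overlaps the margin, was equally bare in its gene and within 3 kb of its start. The pair of GFI1 genes thus differed in covered share of the window with 15000 EMPs, 18.8% at Gfi1, the highest of the 6, and 0% at Gfi1b, as at Runx1.

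**Figure D3:**
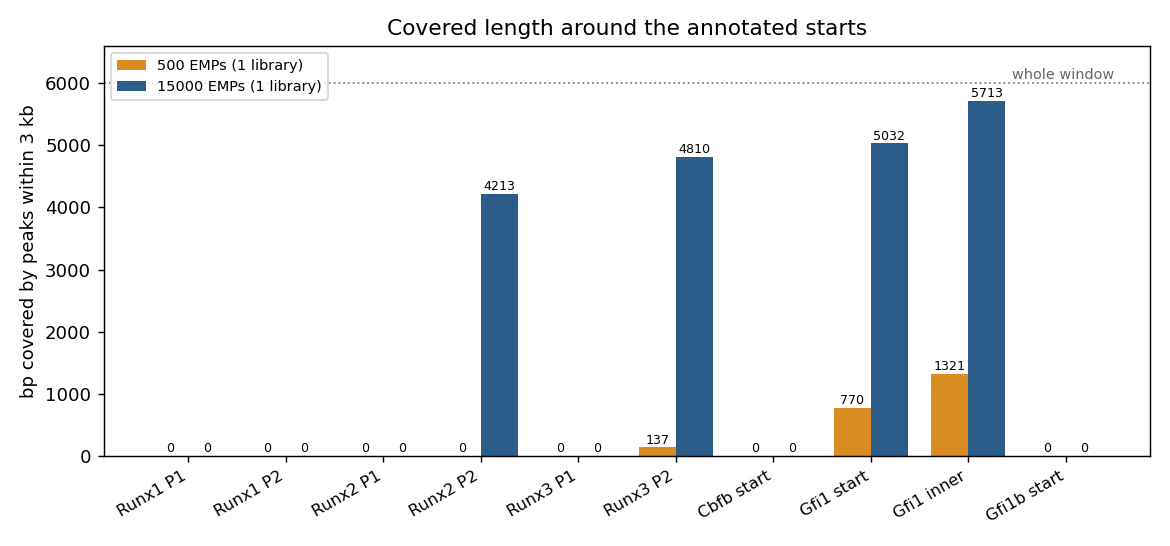
Bases covered by H3K27me3 peaks within 3 kb on either side of 10 annotated starts (y axis, bp of 6001) in the 500-EMP library (orange) and the 15000-EMP library (blue), 1 library each, so there are no error bars. Starts with covered bases in this window are Runx2 P2, Runx3 P2 and both Gfi1 starts. There the 15000-EMP values run from 4213 to 5713 bp and the 500-EMP values from 0 to 1321 bp.

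The peaks of the 2 libraries were next laid over each other. Counting any overlap of 1 bp or more, 10 of the 11 peaks with 500 EMPs met a 15000-EMP peak, or 90.9%, with a 95% Wilson interval from 62.3 to 98.4. In the other direction 4 of 15 did, a share of 26.7% (10.9 to 52.0). The intervals cover counting error only, and neighbouring peaks of a gene are not independent. The same shares over all peaks of the lists were not computed, so these describe the genes and cannot be called particular to them. In bases the lists shared 2993 bp, which was 95.6% of the 3130 bp covered with 500 EMPs and 10.9% of the 27567 bp covered with 15000 EMPs. At Runx3 and Gfi1, the 500-EMP list thus marked mostly narrow cores of the regions in the 15000-EMP list. At Runx2 and Cbfb the 15000-EMP list stood alone. Of all genes with a 15000-EMP peak in the gene or within 20 kb, 59.9% had one with 500 EMPs as well.

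The median peak width at the 6 genes was 208 bp with 500 EMPs and 1099 bp with 15000 EMPs, against 363 bp and 770 bp over the whole lists. Introns held 82.8% of the covered bases with 500 EMPs and 75.9% with 15000 EMPs. Coding sequence held 12.8% and 5.87%, all of it in Gfi1 with 500 EMPs and most of it there with 15000 EMPs.

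The CpG content of the starts, which played no part in choosing the genes, was then set beside the peaks. Within 500 bp on either side, the CpG ratio was low at the P1 starts, with 0.31 at Runx1, 0.16 at Runx2 and 0.36 at Runx3. It was high at the P2 starts, with 0.86, 0.91 and 0.95. Cbfb had 0.93, the Gfi1 starts 0.59 and 0.49, and Gfi1b 0.32. All 3 P1 starts and Gfi1b, with the lowest ratios, lacked peaks. The CpG-rich starts divided into Runx2 P2 and Runx3 P2, which had peaks with 15000 EMPs, and Runx1 P2 and the Cbfb start, which had none. The Gfi1 starts, the most covered of the 10, had middling ratios.

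Across all gene starts with a ratio below 0.3, 5.15% had a 15000-EMP peak within 3 kb. The share was 25.9% for ratios from 0.3 to 0.6 and 21.5% for ratios of 0.6 or higher. With 500 EMPs the shares were 2.38%, 14.0% and 13.5%. Most CpG-rich starts thus had no peak, as at Runx1 P2 and Cbfb. Of the starts without a peak, only Runx2 P1 had a ratio below 0.3. Runx1 P1, Runx3 P1 and Gfi1b fell in the class from 0.3 to 0.6, as did both covered Gfi1 starts.

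**Figure D4:**
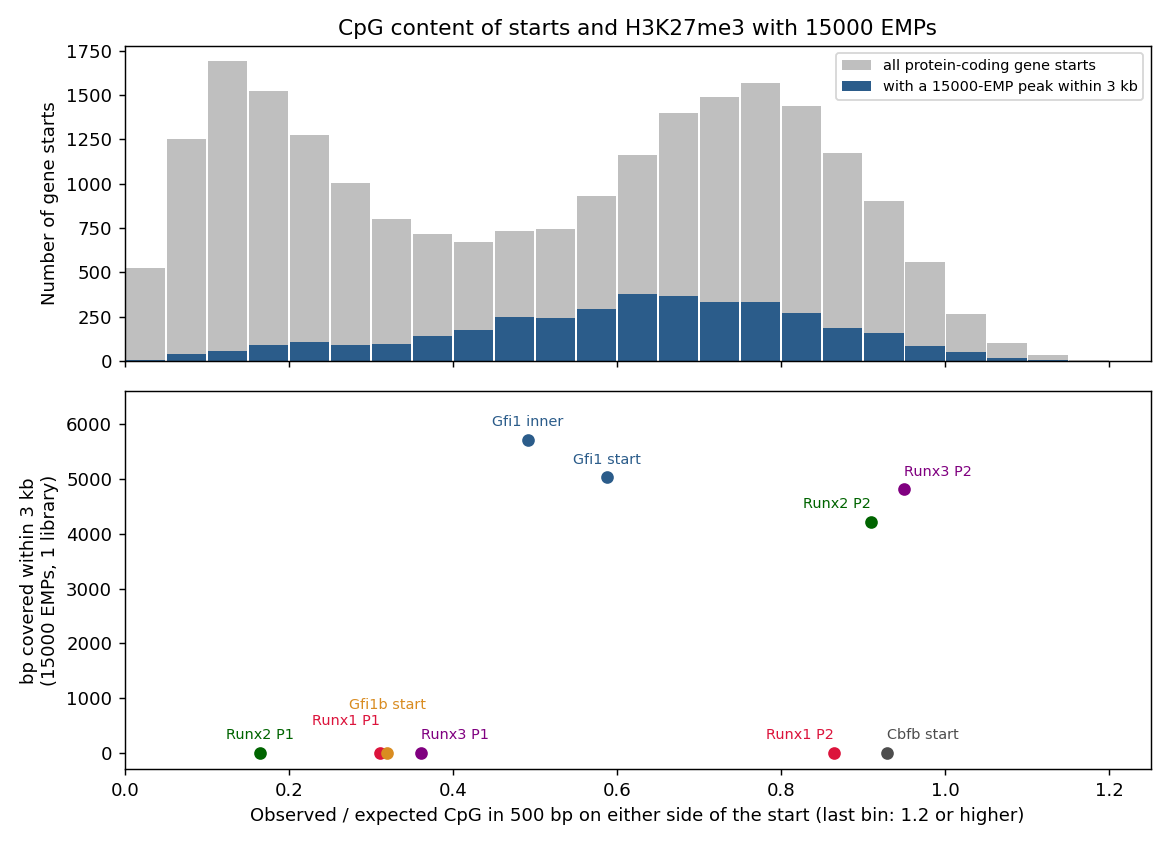
Top, number of protein-coding gene starts (y axis) by the observed over expected CpG ratio within 500 bp of the start (x axis), for all starts in grey and for those with a 15000-EMP peak within 3 kb in blue. Bottom, bases covered within 3 kb (y axis, bp, 1 library) at the 10 starts of the 6 genes against the same ratio. Runx1 P2 and Cbfb sit at 0 bp beside Runx2 P2 and Runx3 P2 at 4213 and 4810 bp, although all 4 have ratios above 0.8.

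The genes that work with these factors were read in the same way, from 7 lists of 71 genes in all, and a gene counted when a peak lay within 3 kb of its start. The background is again 9.92% of protein-coding genes with 500 EMPs and 17.0% with 15000 EMPs, with a median of 0 bp covered in both. None of these lists was tested as a set.

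Among 13 RUNX cofactors, 1 had a peak with 500 EMPs and 3 with 15000 EMPs. Runx1t1, a corepressor known as the fusion partner of RUNX1 in leukemia, had 966 bp covered with 500 EMPs and 2878 bp with 15000 EMPs. The Groucho corepressors Tle1 and Tle2 had 855 and 912 bp, with 15000 EMPs only. Of 5 GFI1 cofactors, which include the demethylase gene Kdm1a and its partner Rcor1, 0 had a peak in either library.

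Upstream factors of hemogenic endothelium had a peak at 1 of 8 genes with 500 EMPs and at 5 of 8 with 15000 EMPs, with a median cover of 357 bp in the latter. Erg, an ETS factor of endothelium and blood, had 434 bp covered with 500 EMPs and 4041 bp with 15000 EMPs. Gata2, which acts above Runx1, had 2334 bp with 15000 EMPs and none with 500 EMPs. The other ETS genes Fli1, Ets1 and Etv2 had 282 to 454 bp, with 15000 EMPs only. Tal1, Lmo2 and Lyl1 had none. With a limit of 1 kb the count with 15000 EMPs was 2 of 8, against 15.2% of all genes.

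Among 11 hematopoietic RUNX1 targets, 0 had a peak with 500 EMPs and 1 with 15000 EMPs. That gene was Cebpa, a factor of granulocyte fate, with 1381 bp, and its peak lay more than 1 kb from the start. Spi1, Myb, Csf1r and Kit were among the 10 without.

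The next list held 12 endothelial genes chosen as ones silenced in the transition, and their expression was not read here. It had a peak at 5 genes with 500 EMPs and at 7 with 15000 EMPs, with a median cover of 0 bp and 1224 bp. With a limit of 1 kb the count with 500 EMPs was 3. Sox17, a SoxF factor of arterial and hemogenic endothelium, had 2632 bp covered with 500 EMPs and all 6001 bp with 15000 EMPs. Its relative Sox7 had 2301 and 5710 bp. Sox18, the third SoxF gene, had 2790 bp with 15000 EMPs only. The Notch ligand gene Dll4 and the Notch target genes Hey1 and Hey2 had 219 to 702 bp with 500 EMPs and 2174 to 3823 bp with 15000 EMPs. Kdr, a VEGF receptor, had 274 bp with 15000 EMPs only. Cdh5, Tek, Pecam1, Eng and Notch4 had none within 3 kb.

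The programmes that Runx2 and Runx3 serve in other tissues were also covered in part. Of 12 genes of the skeletal RUNX2 programme, 5 had a peak with 500 EMPs and 6 with 15000 EMPs, with a median cover of 0 bp and 1131 bp. The homeobox factor gene Msx2 had 4031 bp covered with 500 EMPs and 5753 bp with 15000 EMPs. Dlx5, another homeobox factor gene of bone, had 2657 and 5228 bp. The collagen gene Col1a1 had 524 and 3001 bp and Sost, an inhibitor of Wnt signalling from bone cells, 1209 and 3485 bp. Alpl, the alkaline phosphatase gene, had 2262 bp with 15000 EMPs only. Sp7, the factor that follows RUNX2 in bone, had none within 3 kb.

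Of 10 genes of the RUNX3 programme, 3 had a peak in both libraries. Ntrk2, a neurotrophin receptor gene, had 1256 bp with 500 EMPs and 3722 bp with 15000 EMPs. Pvalb, a calcium-binding protein of proprioceptive neurons, had 904 and 2590 bp. The T cell genes of the list, such as Cd8a, Cd4 and Zbtb7b, had none within 3 kb.

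**Figure D5:**
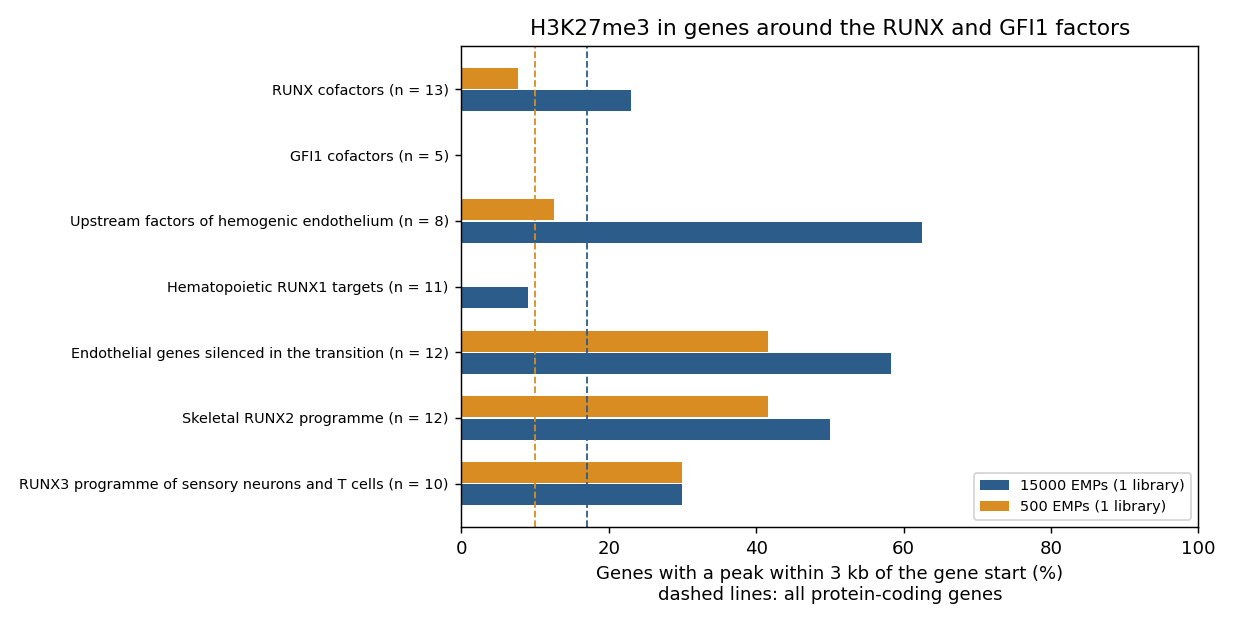
Share of each list with an H3K27me3 peak within 3 kb of the gene start (x axis, percent) in the 500-EMP library (orange) and the 15000-EMP library (blue), 1 library each, with the number of genes beside the list's name. Dashed lines are the shares over all protein-coding genes, 9.92% and 17.0%. The GFI1 cofactors are at 0% in both libraries and the upstream factors are at 62.5% with 15000 EMPs (5 of 8, or 2 of 8 with a limit of 1 kb).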

How the data were processed

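H3K27me3 was profiled by CUT&RUN in 2 libraries, with 1 IgG library beside each, and groups were taken from the labels. The authors aligned reads to mm10 (GRCm38) with Bowtie2 2.2.1, used SAMtools 1.9 and called broad peaks with MACS2 2.1.2 in each library against its IgG. In their listed commands each threshold stands beside the other library's name, and the lists were taken as labelled. The deposited peak lists hold chromosome, start and end in bp, and the deposited annotated tables add a gene and a distance in bp. Neither holds counts or scores, so the reads behind a peak and its precision cannot be read from them. The study states a depth and alignment rate per library elsewhere, which entered no count here. IgG peaks were not used here.

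Gene models came from GENCODE vM21, and promoter sequences from RefSeq. Peak starts were moved to 1-based coordinates, and 0 peaks ran past a chromosome end. A peak belonged to a gene when it overlapped the gene or its 20 kb margins, and lists were compared by an overlap of at least 1 bp. Broad calling joins nearby enrichment, which bears on peak numbers and widths. CpG ratios used 500 bp on either side of a start, or the whole peak. Shares carry 95% Wilson intervals. Named were the 6 genes with all their peaks, every listed gene with a peak within 3 kb, protein-coding genes in the windows and the 3 genes most like a member in cover, which only Gfi1 could have. A few genes and a sequence that this rule or the comparison would show are not reported here. Further genes without a peak were named as examples after their values were seen. The genes, lists and starts were chosen with earlier results of these data known. Alternatives changed the margin, the start limit, the starts counted (any transcript, or the distance column of the authors' tables), the overlap, the joining and the smallest peaks. Interval functions were tested on simulated data. Python 3.11.15, pandas 2.3.3, numpy 2.4.6 and pysam 0.24.0 were used.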

Additional observations from a re-analysis of the deposited data

How the results depend on the processing

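Of 200 recomputed values, 180 stayed within 1.5 times the reported count or within the interval of the reported share, and 20 moved beyond. Many of the 180 were 0 before and after, and some alternatives could not have added a peak, so this count is no measure of stability. Among the 60 values that were not of a single gene or list, 51 stayed and 9 moved. Joining peaks within 3 kb gave 5 peaks at the 6 genes with 500 EMPs and 7 with 15000 EMPs, so the number of peaks rests on the joining, while the genes with a peak were unchanged in number. Runx3 then had 4 peaks with 500 EMPs and 3 with 15000 EMPs, and Gfi1 had 1 and 2. With a limit of 1 kb, 0 of 6 genes had a 500-EMP peak at the gene start. With any transcript start, 2 genes had one with 500 EMPs and 3 with 15000 EMPs. Where at least 50% of the query peak had to overlap, the share of 15000-EMP peaks meeting a 500-EMP peak was 0%, and where 50% of both peaks had to overlap, both shares were 0%. Within 1 kb, 100% of the 500-EMP peaks met a 15000-EMP peak, and 46.7% of the 15000-EMP peaks met a 500-EMP peak. With peaks joined, these shares were 80.0% and 42.9%. With the distances of the authors' tables, 1 of 6 genes had a peak within 3 kb in each library, against 9.73% and 16.7% of all genes. A margin of 10 kb left out the Cbfb peak, which gave 3 of 6 genes with 15000 EMPs against 25.0% of all genes. At 1 kb the upstream factors with a 15000-EMP peak numbered 2 of 8, against 15.2% of all genes, and the endothelial genes with a 500-EMP peak 3 of 12, against 7.39%. The peak lists held no score, so a stricter list could be made only by leaving out peaks of the smallest width, which changed no count of genes with a peak among the 6. No paired analysis was possible because each group had 1 library and no test was made. A missing peak in either library is a call at one depth and threshold and does not show that the mark was absent.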
